A study of Mus musculus with 4 samples.

Results

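The genes that make, degrade, carry and read out retinoic acid were examined in the frontonasal prominence (FNP), the facial tissue from which the nose and snout form. Their 10 members, Rdh10, Aldh1a1, Aldh1a2, Aldh1a3, Cyp26a1, Cyp26b1, Cyp26c1, Crabp1, Crabp2 and Rarb, were chosen by gene symbol, and each matched 1 of the 33708 autosomal genes in the table. The tissue came from 4 mouse embryos on the FVB/NJ background, collected at E10.5 with 29 somites. Of these, 2 were Smchd1+/+ (WT, labelled 1 female and 1 male) and 2 were homozygous for MommeD43 (MD43, both labelled male), a missense allele of the chromatin protein gene Smchd1 that arose by ENU mutagenesis. Each embryo gave its own library. WT replicate 2 and MD43 replicate 2 shared a mother, and the replicate 1 embryos had other mothers. Another record of the study names WT replicate 2 as female. If so, sex and genotype cannot be told apart.

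Retinoic acid is a small signalling molecule made from vitamin A. RDH10 oxidises retinol to retinal, and the ALDH1A enzymes oxidise retinal to retinoic acid. The CYP26 enzymes break retinoic acid down, CRABP proteins bind it in the cytoplasm, and nuclear receptors of the RAR family, paired with RXR partners, bind DNA and switch on target genes when it is present. In the embryonic head, ALDH1A3 is known from the nasal epithelium and the ventral eye, ALDH1A1 from the dorsal retina and ALDH1A2 mainly from mesoderm further back. Rarb is both a receptor and a classical target of the pathway.

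The table gave 1 value per gene and genotype in log2 RPKM, that is, read density corrected for transcript length and library size, with both libraries of a genotype merged. No value therefore carries a spread between embryos, and no difference between genotypes could be tested. Every difference below is MD43 minus WT on the log2 RPKM scale. The read counts of both libraries enter the value as their product, from which the geometric mean was recovered and is given as reads. The ± value is the smallest standard error that counting of these reads allows. It covers counting error alone and leaves out variation between embryos. The depth implied for a library, as the geometric mean of a genotype, was 22328791 reads in MD43 and 16055882 in WT. A gene was used for counts when it had at least 10 reads in at least 1 genotype. This held for 15377 genes, and for 9 of the 10 members, Aldh1a2 being the exception. The median difference of the used genes was 0.0057, and 89.3% of them differed by less than 1.5-fold. Of the used genes, 48.8% were lower in MD43, the background for counts of direction below. Smchd1 had 3.30 log2 RPKM in MD43 and 3.31 in WT, a difference of -0.013 ± 0.02, or 0.073 after a correction for GC content and length. A missense change need not alter the level of its mRNA, so this value does not check the labels.

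The promoters of Rarb and Cyp26a1 are shown because each holds a retinoic acid response element, the direct repeat to which RAR and RXR bind. The element was searched on both strands as a retinoic acid response element of 2 half-sites of 6 bases, separated by 1, 2 or 5 bases. RefSeq promoters (GRCm38.p6) were matched for 7 of the 10 members. The 250 bases before the annotated start are printed 5′ to 3′ on the strand of the gene, with the element in capitals. The Rarb sequence is chr14:16575477-16575726 on the minus strand. The Cyp26a1 sequence is chr19:37697558-37697807 on the plus strand.
Rarb: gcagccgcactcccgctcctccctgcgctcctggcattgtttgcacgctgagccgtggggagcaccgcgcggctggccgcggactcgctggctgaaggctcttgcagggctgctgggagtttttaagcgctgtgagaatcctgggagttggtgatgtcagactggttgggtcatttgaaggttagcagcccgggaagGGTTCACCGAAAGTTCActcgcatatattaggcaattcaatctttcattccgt
Cyp26a1: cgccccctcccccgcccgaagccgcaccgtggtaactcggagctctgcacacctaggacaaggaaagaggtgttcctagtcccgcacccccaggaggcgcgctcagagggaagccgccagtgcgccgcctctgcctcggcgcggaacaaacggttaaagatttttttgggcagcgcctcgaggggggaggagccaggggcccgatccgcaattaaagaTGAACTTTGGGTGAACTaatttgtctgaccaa

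Both elements had a spacing of 5 bases. That of Rarb lay 53 to 37 bases before the start, in the direction of the gene. That of Cyp26a1 lay 32 to 16 bases before the start, on the opposite strand. Of 32851 promoters, each searched over these 250 bases and the next 50, 0.588% held an element of any of the 3 spacings and 0.0974% one with the spacing of 5. No match was found in the promoters of Aldh1a1, Aldh1a2, Cyp26b1, Cyp26c1 and Crabp1. A match is a description of the letters and not evidence of binding. The genes that carry these elements, Rarb and Cyp26a1, differed little between the genotypes, as given with their values below.

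The sharpest differences lay among the enzymes that make retinoic acid, and they pointed in opposite directions. Aldh1a1 and Aldh1a2 were lower in MD43 and Aldh1a3 was higher. Aldh1a3 was by far the most abundant of the 3 in both genotypes.

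Aldh1a1 (ENSMUSG00000053279, GRCm38 chromosome 19, 20492715 to 20643465, plus strand) had a level of -3.10 log2 RPKM in MD43 and -0.27 in WT, on 12.8 and 66.0 reads. Its difference was -2.84 ± 0.31, a level 7.14-fold lower in MD43. Only 27 of the 15377 used genes had a lower difference. Among the 9 used members, Aldh1a1 was the single one at least 2-fold lower in MD43, against 2.47% of the used genes. It was also the single used member at least 1.5-fold lower, against 6.43%. Among the 2624 genes that had 30 to 130 reads in WT, a window around the 66.0 of Aldh1a1, 4.23% were at least 2-fold lower. None of the 9 used members was at least 2-fold higher, against 1.64% of the used genes.

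For such low genes the product of the reads limits what each library can have held. The product was 165 for the MD43 libraries, which allows 4 splits, the most even being 11 and 15 reads. It was 4350 for the WT libraries, which allows 12 splits, the most even being 58 and 75 reads. With the most even splits, both MD43 libraries lie below both WT libraries. After scaling each genotype to its depth, 13 of the 48 combinations of splits keep the genotypes apart. For Aldh1a2, with 0 reads in both MD43 libraries, the count was 3 of 3. It was 1 of 18 for Cyp26c1, 0 of 180 for Cyp26b1 and 0 of 40 for Cyp26a1. The values do not show which split is the true one. The share of all genes kept apart in this way was not computed, so these counts cannot be called unusual. Of the 75-base stretches of the Aldh1a1 transcripts, 1.01% also occur in Aldh1a7, a close copy nearby on the same chromosome. Aldh1a7 had a difference of -0.69, on 54.0 reads in MD43 and 62.7 in WT.

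Aldh1a2 (ENSMUSG00000013584, chromosome 9, 71215789 to 71296243, plus strand) was at the limit of detection. Both MD43 libraries had 0 reads. The WT product was 20, so both WT libraries had at least 1 read, with 4 and 5 as the most even split. The levels were -5.81 log2 RPKM in MD43 and -3.02 in WT. With 3 reads per library as the floor for a count of 0, Aldh1a2 was at least 2.07-fold lower in MD43. This bound leaves out the counting error of the WT reads. With a WT geometric mean of 4.47 reads the size of the difference is poorly known.

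Aldh1a3 (ENSMUSG00000015134, chromosome 7, 66390890 to 66427517, minus strand) had 4.99 log2 RPKM in MD43 and 4.03 in WT, on 3275 and 1211 reads. It was 1.94-fold higher in MD43, a difference of 0.96 ± 0.03. This is far beyond its counting error and just short of 2-fold. Well-measured genes seldom differed by this much in this direction. In both genotypes 10757 genes reached 100 reads, and 9 of them had a higher difference. Aldh1a3 and Cyp26c1 were the 2 members at least 1.5-fold higher, against 4.24% of all used genes. Of these, Cyp26c1 passed the filter only through MD43, where it was higher, and its counting interval includes 0. Of the 10757 well-measured genes, which include 6 members, 0.576% were at least 1.5-fold higher, and Aldh1a3 was the single member among them.

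Summed on the linear scale, the Aldh1a enzymes reached 31.9 RPKM in MD43 and 17.3 RPKM in WT, a ratio of 1.84. Aldh1a3 made up 99.6% of this sum in MD43 and 94.5% in WT. The share of Aldh1a1 was 0.365% in MD43 and 4.81% in WT. The lower Aldh1a1 and Aldh1a2 levels thus took little from the sum. Rdh10 (ENSMUSG00000025921, chromosome 1, 16105774 to 16133734, plus strand), which supplies retinal to these enzymes, had 2.01 log2 RPKM in MD43 and 1.90 in WT. Its difference of 0.11 ± 0.08, on 375 and 249.8 reads, had a 95% counting interval from -0.052 to 0.27.

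**Figure D1:**
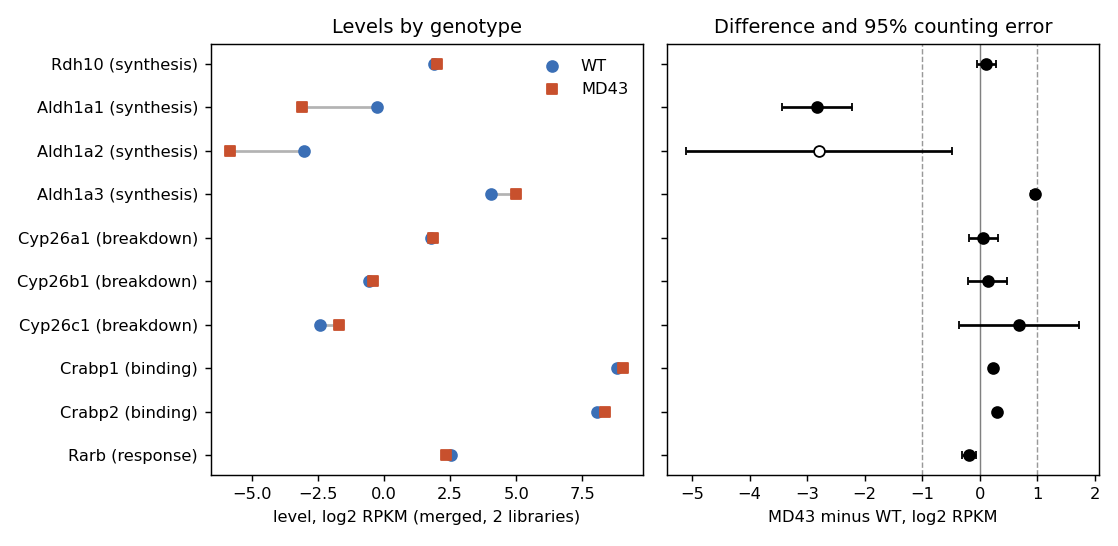
Levels of the 10 retinoic acid genes in log2 RPKM (left, circles for WT and squares for MD43, each the merged value of 2 libraries) and their MD43 minus WT difference in log2 RPKM (right). Bars are 95% intervals from the smallest counting error, the open circle marks Aldh1a2, which had fewer than 10 reads in both genotypes, and dashed lines mark 2-fold. Among the used genes of the set, Aldh1a1 (-2.84) has the lowest and Aldh1a3 (0.96) the highest difference, and the wide interval of Cyp26c1 includes the value of Aldh1a3.

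The enzymes that break retinoic acid down differed less. Cyp26a1 (ENSMUSG00000024987, chromosome 19, 37697798 to 37701536, plus strand), itself a target of the pathway, had 1.84 log2 RPKM in MD43 and 1.77 in WT. Its difference was 0.06 ± 0.13, on 158 and 109 reads. The 95% counting interval ran from -0.19 to 0.31. The MD43 product of 24973 allows 113 and 221 reads as its most even split, so the MD43 libraries differed by at least 1.96-fold in their reads of this gene. The WT product of 11826 allows 81 and 146 as its most even split, a ratio of at least 1.80. These ratios include the difference in depth between libraries.

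Cyp26b1 (ENSMUSG00000063415, chromosome 6, 84571414 to 84593908, minus strand) had -0.44 log2 RPKM in MD43 and -0.57 in WT. Its difference was 0.14 ± 0.17, on 88.4 and 57.8 reads. Its most even splits were 84 and 93 reads in MD43 and 44 and 76 in WT. Cyp26c1 (ENSMUSG00000062432, chromosome 19, 37685581 to 37693398, plus strand) lies next to Cyp26a1, with a gap of 4399 bp. It had -1.72 log2 RPKM in MD43 and -2.41 in WT. It was 1.61-fold higher in MD43, a difference of 0.69 ± 0.53, but on 11.8 reads in MD43 and 5.29 in WT its 95% counting interval ran from -0.36 to 1.73. Cyp26c1 passed the filter through MD43 alone, the genotype in which it was higher. Its products were 140 in MD43 and 28 in WT, with 10 and 14 against 4 and 7 reads as the most even splits. Summed, the Cyp26 enzymes reached 4.61 RPKM in MD43 and 4.28 RPKM in WT, a ratio of 1.08. Cyp26a1 made up 77.4% of the sum in MD43 and 79.9% in WT.

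The carriers of retinoic acid were the most abundant members. Crabp1 (ENSMUSG00000032291, chromosome 9, 54764748 to 54773110, plus strand) had 9.05 log2 RPKM in MD43 and 8.82 in WT. Only 0.312% of the used genes had a higher level in WT. Its difference was 0.23 ± 0.02, on 9486 and 5818 reads. Crabp2 (ENSMUSG00000004885, chromosome 3, 87948666 to 87953376, plus strand) had 8.36 log2 RPKM in MD43 and 8.06 in WT, and 0.715% of the used genes had a higher level in WT. Its difference was 0.31 ± 0.02, on 9713 and 5650 reads. Both differences exceeded their counting error, at 1.17-fold for Crabp1 and 1.24-fold for Crabp2. Among the 10757 genes above 100 reads in both genotypes, 1104 had a higher difference than Crabp1 and 518 a higher one than Crabp2. Summed, the carriers reached 859 RPKM in MD43 and 718 RPKM in WT.

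Rarb (ENSMUSG00000017491, chromosome 14, 16430839 to 16819156, minus strand), the receptor and target gene, had 2.34 log2 RPKM in MD43 and 2.53 in WT. Its difference was -0.18 ± 0.06, on 597 and 487 reads, a level 1.13-fold lower in MD43. This exceeded the counting error, but 23.2% of the used genes had a lower difference. The exons of Rarb overlap those of Top2b, on the opposite strand, over 1793 bp, which is 34.1% of the Rarb exon length. The libraries were stranded, but whether counting used strand is not given in the sources used here. Top2b had 4.90 log2 RPKM in both genotypes. At its mean read density it would place 1192 reads in the overlap in MD43 and 858 in WT. These numbers are higher than all reads listed for Rarb.

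In WT, the levels per length ranked Crabp1, Crabp2, Aldh1a3, Rarb, Rdh10, Cyp26a1, Aldh1a1, Cyp26b1, Cyp26c1 and Aldh1a2 from high to low. The neighbours Rdh10 and Cyp26a1, Aldh1a1 and Cyp26b1, and Cyp26c1 and Aldh1a2 did not differ beyond their 95% counting interval. In MD43 the order was the same except for Aldh1a1, which lay below Cyp26c1. There, only Rdh10 and Cyp26a1 did not differ beyond it. For Aldh1a1 and Aldh1a2 in MD43 this depends on the 0.9 reads given to libraries without any, since Aldh1a2 had 0 reads there. Crabp1 exceeded Crabp2 by 0.76 on the log2 scale in WT and by 0.69 in MD43. Transcript length is taken out of these comparisons between genes.

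**Figure D2:**
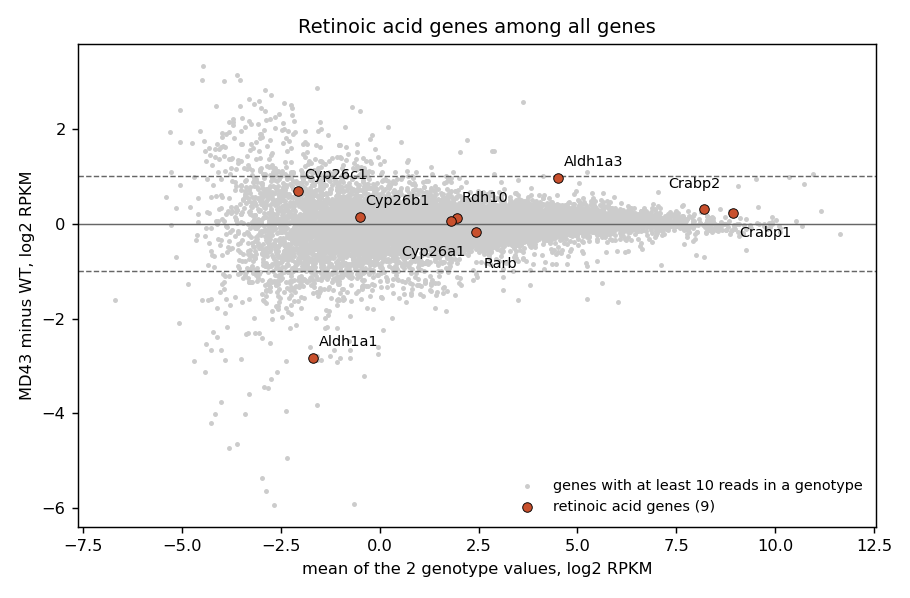
Difference between MD43 and WT (log2 RPKM) against the mean of both genotype values (log2 RPKM) for the 15377 used genes (grey) and the 9 retinoic acid genes among them (red). Dashed lines mark 2-fold. Aldh1a1 lies among the lowest differences and Aldh1a3 at the upper edge of the genes of its level, and Cyp26a1, Cyp26b1, Cyp26c1, Rdh10 and Rarb lie within the grey cloud.

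The genes around the members were examined for a shared difference of the region. Within 500 kb of Aldh1a1 there were 2 used genes, with differences from -0.69 to 0.28. The lower value is that of Aldh1a7, the close copy described above. Within the same distance of Aldh1a3 there were 10, from -0.14 to 0.45, none of them near the 0.96 of Aldh1a3. Around all 10 members, 1 used neighbour within 500 kb differed by 2-fold or more, 4930444P10Rik near Rdh10, with a difference of 1.76.

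A wider list of 51 retinoid genes that are no members was then described by role. Of these, 36 had at least 10 reads in a genotype, 21 with a higher and 15 with a lower value in MD43. Their median difference was 0.014, against 0.0057 for all used genes, of which 48.8% were lower in MD43. Of the 36, 1 was at least 2-fold lower and 0 were at least 2-fold higher, against 2.47% and 1.64% of all used genes. The gene past 2-fold was Ttr, which encodes a plasma carrier of thyroid hormone and of retinol-binding protein. Its difference was -1.23 ± 0.47, on only 7.55 reads in MD43 and 12.7 in WT, and it passed the filter through WT alone, the genotype in which it was higher.

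Among genes for uptake and storage of retinol, 3 were higher and 3 lower in MD43. Dgat1, which can esterify retinol, differed by -0.11 ± 0.08. Stra6, the membrane receptor that takes up retinol, differed by 0.44 ± 0.06, on 845 and 446 reads, and is named here after its value was seen. Among 9 used genes for the conversion of retinol and retinal, the differences ran from -0.33 to 0.34. Adh5, an alcohol dehydrogenase, differed by -0.08 ± 0.02 and Dhrs4, a retinal reductase, by 0.18 ± 0.06.

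Of the 5 receptors, 2 were higher and 3 lower, from -0.52 to 0.14 with a median difference of -0.0019. The lowest was Rxrg at -0.52 ± 0.38, on 14.1 reads in MD43 and 14.5 in WT, and is named here after its value was seen. The RXR partners Rxrb and Rxra, the most abundant of them, differed by 0.02 ± 0.04 and 0.14 ± 0.04. Fabp5, a fatty acid binding protein that can carry retinoic acid to the nucleus, differed by 0.16 ± 0.02. Of the 10 coregulators, 8 were higher and 2 lower, between -0.24 and 0.32, with the corepressor Ncor1 at 0.18 ± 0.02 and Rere at -0.06 ± 0.03. Of 10 direct targets of the pathway, 5 had enough reads. Their differences ran from -0.26 to 0.73 with a median of 0.0031. The highest was Cdx1 at 0.73 ± 0.54, on 12 reads in MD43 and 5.20 in WT, and is named here after its value was seen. Cdx1 passed the filter through MD43 alone, the genotype in which it was higher. Zfp703, a transcriptional repressor, differed by 0.0031 ± 0.07 and Rarres2, the gene of the secreted protein chemerin, by -0.26 ± 0.10. Among the genes of this wider list with over 100 reads in both genotypes, Stra6 had the highest difference, below that of Aldh1a3.

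**Figure D3:**
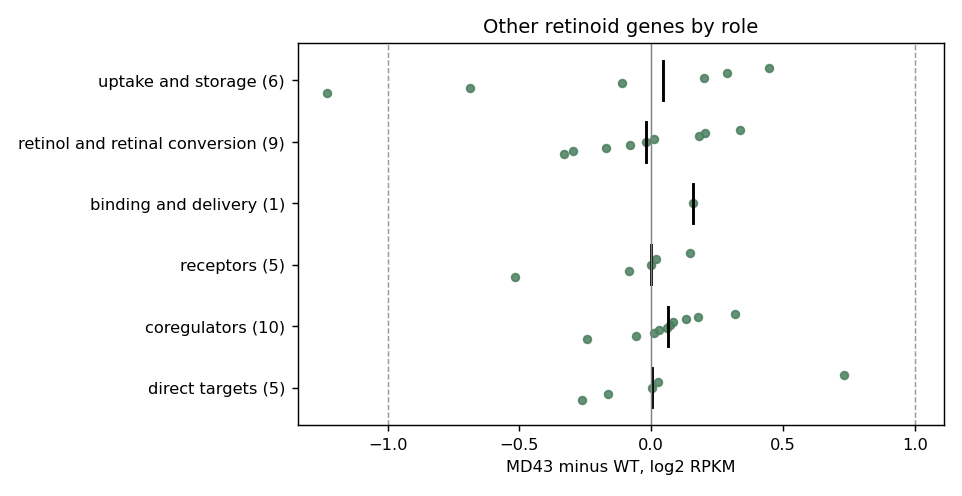
MD43 minus WT difference (log2 RPKM) of the 36 used retinoid genes outside the members, by role, with the number of genes in brackets. Each point is 1 gene, black bars are medians and dashed lines mark 2-fold, which Ttr alone passes at -1.23.

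Because the Aldh1a genes are each expressed in particular tissues of the head, markers of those tissues were set beside them. In dissected tissue, fewer cells of a type and less RNA per cell cannot be told apart. The FNP markers were present. All 10 facial mesenchyme genes were used, with a median difference of -0.14 and a sum of 170 RPKM in MD43 and 174 RPKM in WT. Msx1, a homeobox gene of this mesenchyme, differed by -0.17 ± 0.03. None of the 6 arch and trunk genes, such as Hand1 and Hand2, reached 10 reads.

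Markers of the eye were lower in MD43. Of the members known from the eye, Aldh1a1 was lower and Aldh1a3 higher. Of 8 optic vesicle genes 7 were used. All 7 were lower in MD43 and 5 of them at least 2-fold lower, against 48.8% and 2.47% of all used genes. Their median difference was -1.203, also with each gene at or under 3 reads set to its bound, and their sum was 4.65 RPKM in MD43 and 7.29 RPKM in WT. Rax, an early eye field gene, differed by -2.17 ± 0.24 and is named here after its value was seen. The 2 most abundant genes of the list, Six6 and Mitf, differed by -0.021 ± 0.10 and -1.01 ± 0.16. The diencephalon list was also lower, with 8 of 8 used genes lower and 6 of them at least 2-fold lower, against the same 48.8% and 2.47%. Barhl2, a homeobox gene, had a difference of -5.91 ± 0.50, on 4.24 reads in MD43 and 183 in WT, and is named here after its value was seen. Foxb1, a forkhead gene, had -5.93 ± 0.89, on 1.34 and 58.8 reads, a value that depends on the 0.9 reads given to a library without any and is -4.77 at a floor of 3 reads. The most abundant, Nkx2-1 and Irx3, differed by -0.45 ± 0.06 and -0.18 ± 0.07. This list holds genes known to be lower in these samples when it was written, so its direction is not independent evidence. The part of eye or diencephalon content in the Aldh1a1 and Aldh1a2 differences was not tested.

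Most markers of the surface ectoderm were higher in MD43. Of 10 genes 9 were higher and 1 lower in MD43, while 48.8% of all used genes were lower. The median difference of the list was 0.65, and its sum was 193 RPKM in MD43 and 125 RPKM in WT. Krt18 and Cldn6, the most abundant, differed by 0.49 ± 0.04 and 0.87 ± 0.05, and Krt5, a basal keratin, by 1.17 ± 0.28. The nasal placode list had 7 of 8 genes higher, with a median of 0.23 and a sum of 78.2 RPKM in MD43 and 69.9 RPKM in WT. Eya2, Dlx5 and Fgf8 differed by 0.36 ± 0.05, 0.52 ± 0.10 and -0.34 ± 0.07. The difference of Aldh1a3 (0.96) was larger than that of 9 of the 10 ectoderm genes and of all 8 placode genes. The part of epithelial content in it was not tested.

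The telencephalon list had a median difference of 0.11, with Lhx2 and Emx2 at 0.49 ± 0.02 and 0.30 ± 0.04 and Neurog2 at -1.06 ± 0.10. The endothelium list had a median of -0.029, with Cdh5 and Kdr at -0.0071 ± 0.10 and -0.33 ± 0.08. Red blood cell genes were higher in MD43, with 5 of 5 genes higher and a median difference of 0.84. Hbb-bh1 and Hbb-y, embryonic globins, differed by 1.04 ± 0.01 and 0.84 ± 0.01. The sum of all 5 genes was 5810 RPKM in MD43 and 3056 RPKM in WT. The 2 X-linked genes of this list were not analysed here.

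**Figure D4:**
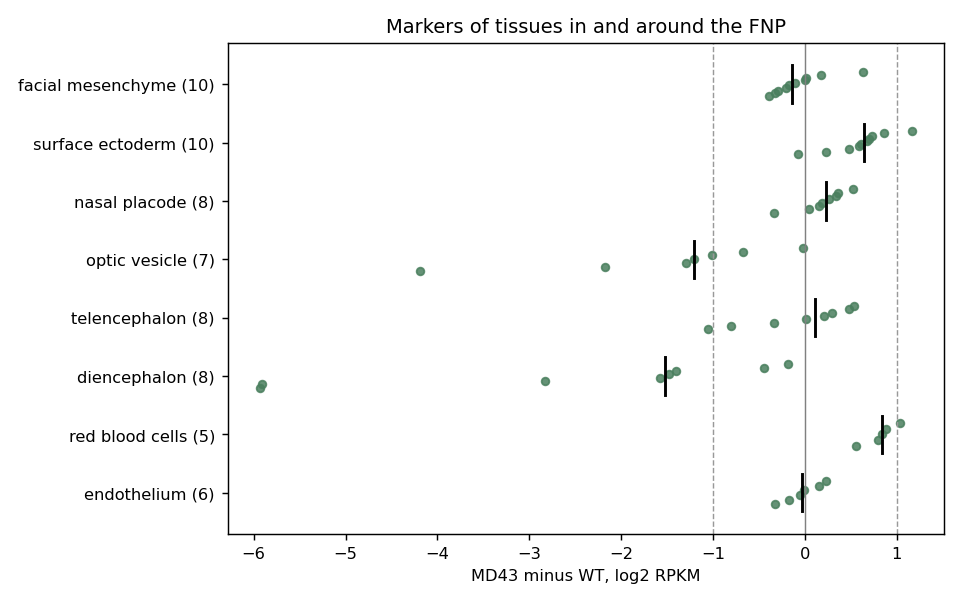
MD43 minus WT difference (log2 RPKM) of the used marker genes, by tissue, with the number of genes in brackets. Each point is 1 gene, black bars are medians and dashed lines mark 2-fold. The optic vesicle (-1.203) and diencephalon medians lie below 0, and those of surface ectoderm (0.65) and red blood cells (0.84) above it.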

How the data were processed

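Stranded poly(A) RNA libraries were made from the FNP of 2 WT and 2 MD43 embryos. The authors trimmed the reads (Trim Galore 0.4.4), mapped them with HISAT2 2.0.5 to GRCm38.p6, per the submitters' processing notes, and quantified them in SeqMonk. Use of strand in counting is not given in the sources used here. The deposited values are log2 RPKM, which the authors scaled for library size, corrected for transcript length and merged to 1 value per genotype. The table also holds the authors' own fold change, mean and FDR, which were not used.

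Genes were joined to GENCODE M21 on symbol and position (33101 of 33708 rows matched). Genes without reads share 1 value per genotype once exon length is added, taken as 0.9 reads in each library. On this scale, 99.9% of the squared reads under 1000 were whole numbers (within 0.05) or such numbers times 0.9, in both genotypes. The counting standard error of a difference was the square root of the summed inverse reads of both genotypes, each weighted for 2 libraries. A fold with a genotype at or under 3 reads is a bound. These intervals and floors cover counting error only. The recovery was run on simulated data made with the same 0.9 reads and exon lengths. That run checks the arithmetic and cannot check these assumptions.

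The planned edgeR test needs counts per library and could not be run, nor could the protein comparison. The members, gene lists and thresholds were chosen with earlier results of these data known. The text names all members, Smchd1, and genes of the lists by level, by passing 2-fold or by the largest difference, for the lists that bear on the members. Some genes that this rule names are not reported here. The window of 30 to 130 reads, the class of at least 100 reads, the splits of products, the neighbours, the overlap with Top2b and the shared stretches of 75 bases were chosen after seeing the data. The alternatives were a pseudocount (0.1 or 1 RPKM), centring by the median of used genes, a quadratic correction for GC content and length (1.40% of the variance), other filters and a 1.5-fold threshold. Python 3.11.15, numpy 2.4.6, pandas 2.3.3, sympy 1.14.0 and matplotlib 3.10.9 were used.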

Additional observations from a re-analysis of the deposited data

How the results depend on the processing

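No paired analysis was possible because both libraries of a genotype share 1 merged value, and for the same reason no library could be left out. Of 125 alternatives, 96 left the value in place (within the 95% counting interval of a gene, within 1.5 times a count, or within 0.29 on the log2 scale for a median). Of the 40 alternatives for members, 0 changed the sign. A pseudocount cannot change a sign, and centring lowered every difference by 0.0057, less than the size of any member difference. Only the GC content and length correction could have changed the sign of a member. With a pseudocount of 1 RPKM, which exceeds the level of these genes, Aldh1a1 was at -0.71 and Aldh1a2 at -0.14, and with 0.1 RPKM they were at -2.11 and -0.92, the latter under 2-fold but within its wide counting interval. After the GC content and length correction, Crabp1 was at 0.16 and Smchd1 at 0.073, the cause of which was not tested.

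The number of members at least 2-fold lower was 0 with a pseudocount of 1 RPKM or when genes needed a mean of 0 log2 RPKM or more, and 2 with no filter. The number at least 1.5-fold higher was 2, including Cyp26c1, which passed the filter through MD43 alone. The share of genes at least 2-fold lower was 1.26% and 0.202% with pseudocounts of 0.1 and 1 RPKM, 4.41% with no filter and 0.663% at such a mean, while 6.43% were at least 1.5-fold lower. The share at least 2-fold higher was 0.735% and 0.0585% with these pseudocounts and 0.213% at such a mean, while 4.24% were at least 1.5-fold higher. In the wider list, the number lower was 0 with either pseudocount or at such a mean, 2 with no filter and 2 at 1.5-fold, and the number higher was 1 with no filter and 1 at 1.5-fold. The optic vesicle median was -0.39 with a pseudocount of 1 RPKM and -0.021 at such a mean, where Six6 alone is left, and the diencephalon median was -0.72 and -0.45. The fewer genes tested under each filter and the damping by a pseudocount follow from their construction.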

Other observations

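The factor pairs of the read products hold information on the depth of single libraries. Among 2370 whole products between 10000 and 100000 in MD43, factor pairs with a ratio between 1.41 and 1.52 were the most frequent, with 505 pairs against a median of 305.5 per bin of this width. In WT, among 2677 products, the most frequent ratios were 1.32 to 1.41, with 483 pairs against a median of 374. The WT peak was weak, with 471 pairs also at a log2 ratio of 0.7 to 0.8. The most even splits of Aldh1a1, 11 and 15 reads in MD43 and 58 and 75 in WT, have ratios of 1.36 and 1.29. Both lie below the most frequent range of their genotype. The WT split of 50 and 87 reads has a ratio of 1.74. These ratios do not decide between the splits. The ratio of at least 1.96 for Cyp26a1 in MD43 lies above the most frequent ones. Which embryo holds which count is not given by these values.

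Of the used genes, 55 have a RefSeq promoter with a retinoic acid response element as searched here. Their median difference was 0.08, against 0.01 for 10927 genes whose promoters hold none, and 0 of the 55 were at least 2-fold lower or higher, against 2.10% and 1.31%. This set was formed after the data were seen, and a match in the promoter does not make a gene a target. No difference between the sets was tested.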
